A study of Mus musculus with 8 samples.

Results

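The enzymes that make prostaglandins and leukotrienes from arachidonic acid were followed in Ly6C-high myeloid cells sorted from mouse pancreatic tumours, 1 day after the tumours had been irradiated or sham-treated. The set is a list of 10 genes, Pla2g4a, Ptgs1, Ptgs2, Ptges, Tbxas1, Hpgds, Alox5, Alox5ap, Lta4h and Ltc4s, and 9 of them were found among the 22180 genes whose array rows carry a single gene symbol. Ptgs1 was on no such row and is not analysed here. Where a gene had several rows, the row brightest on average was used.

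All 8 mice were 8 week old female C57BL/6 animals and carried a subcutaneous tumour, grown for 14 days, of the pancreatic cancer line 152. That line came from spontaneous tumours of KPC mice, which carry KrasLSL-G12D/+ and Trp53LSL-R172H/+ together with Pdx1-Cre; the hosts are labelled C57BL/6 only. The tumours of 4 mice received 20 Gy and those of 4 mice a sham treatment. Cells were sorted as CD45+, CD11b+ and Ly6C-high, a gate for inflammatory monocytes and the macrophages they become, and each mouse gave 1 array. The model is limited to 1 tumour line under the skin, 1 dose and 1 time. Levels are the deposited log2 values, on which a step of 1 is a doubling; array medians lay between 4.68 and 4.73, and arrays correlated with one another at 0.976 to 0.988 over all rows. All 8 marker genes of the sorted cell, among them Ptprc (CD45), Itgam (CD11b) and Ly6c2, were above 4.70, the median of all rows, on every array, and their mean lay between 10.75 and 11.27 on every array. The cells hold many transcripts at once and were measured in bulk, so fewer cells of a type and less RNA per cell cannot be told apart.

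Eicosanoids are short-lived lipid signals. Cytosolic phospholipase A2, encoded by Pla2g4a, frees arachidonic acid from membranes. The cyclooxygenases Ptgs1 and Ptgs2 turn it into prostaglandin H2, from which Ptges makes prostaglandin E2, Tbxas1 thromboxane and Hpgds prostaglandin D2. In the other branch Alox5, helped by the membrane protein Alox5ap, makes leukotriene A4, which Lta4h turns into the neutrophil attractant leukotriene B4 and Ltc4s into the cysteinyl leukotriene C4. Ptgs2 is induced by inflammatory signals in monocytes and macrophages, and prostaglandin E2 is known for damping T cell responses in tumours.

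The sequences upstream of 3 genes are shown because the results turn on them: Lta4h, whose groups did not overlap, and Ptgs2 and Ltc4s, which were high on the same 4 arrays. Each is the 250 bases before the annotated start, 5′ to 3′ on the gene's strand, from RefSeq on GRCm38.p6; capitals mark matches to the motifs searched.
Ptgs2, chr1:150099781-150100030, + strand: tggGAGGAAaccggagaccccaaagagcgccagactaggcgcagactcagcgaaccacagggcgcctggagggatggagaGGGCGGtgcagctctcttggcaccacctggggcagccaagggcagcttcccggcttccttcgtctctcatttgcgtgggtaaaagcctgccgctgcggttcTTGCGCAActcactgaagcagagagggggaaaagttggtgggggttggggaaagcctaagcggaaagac
Ltc4s, chr11:50238533-50238782, - strand: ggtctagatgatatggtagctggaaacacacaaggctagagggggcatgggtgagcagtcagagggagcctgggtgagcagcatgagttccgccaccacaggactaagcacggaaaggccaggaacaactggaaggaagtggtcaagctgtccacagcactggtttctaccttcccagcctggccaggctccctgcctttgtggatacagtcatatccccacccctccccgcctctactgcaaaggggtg
Lta4h, chr10:93453146-93453395, + strand: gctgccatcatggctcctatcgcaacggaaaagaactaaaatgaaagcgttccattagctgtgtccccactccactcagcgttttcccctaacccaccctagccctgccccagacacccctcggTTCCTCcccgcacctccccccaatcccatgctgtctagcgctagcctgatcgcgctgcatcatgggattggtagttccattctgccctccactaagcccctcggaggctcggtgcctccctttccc
The table held such windows for 9 of the 10 listed genes, all but Alox5ap, and the ETS core matched in 7 of those 9. The motifs, chosen after the values were seen, were a TATA box (TATAAA), an E-box (CACGTG), a partial site of the cyclic AMP response element (TGACG), a C/EBP core (TTGCNNAA), a GC box (GGGCGG) and an ETS core (GAGGAA), on both strands. The Ptgs2 sequence held a C/EBP core 69 to 62 bases before the start, a GC box at 170 to 165 and an ETS core at 247 to 242. Of all 32817 windows of this length in the table, 9.57% held the C/EBP core, 32.7% the GC box and 23.3% the ETS core. Lta4h held an ETS core on the opposite strand at 126 to 121, and Ltc4s held none of the 6. The TATA box (12.4% of all windows), the E-box (6.02%) and the partial site (17.7%) matched in none of these 3 sequences. A match is a description of letters, not of a bound site.

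The comparison asked whether the transcripts of these enzymes differ in tumour monocytes and macrophages after irradiation of the tumour. The leukotriene A4 hydrolase transcript, Lta4h, was lower in all 4 irradiated mice than in any sham mouse, and no other enzyme separated the groups. The remaining enzymes, cyclooxygenase 2 included, overlapped between the groups, and several of them differed more between mice of the same treatment than between treatments. In limma's fit over all genes, 0 of the 9 passed the adjusted threshold of 0.05, as did 0% of all genes; at an unadjusted p under 0.05 there was 1 of 9, against 6.07% of all genes in either direction and 4.03% in the lower one. The groups of 4 did not overlap for 1 of 9, against 3.68% of all genes, or 2.56% with the irradiated mice lower. Of the 9 enzymes 5 were higher and 4 lower in irradiated mice, where 57.8% of all genes were lower; their median difference was 0.05, against -0.03 over all genes. With 1 gene of 9 in each count, the enzymes are not set apart from other genes.

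**Figure D1:**
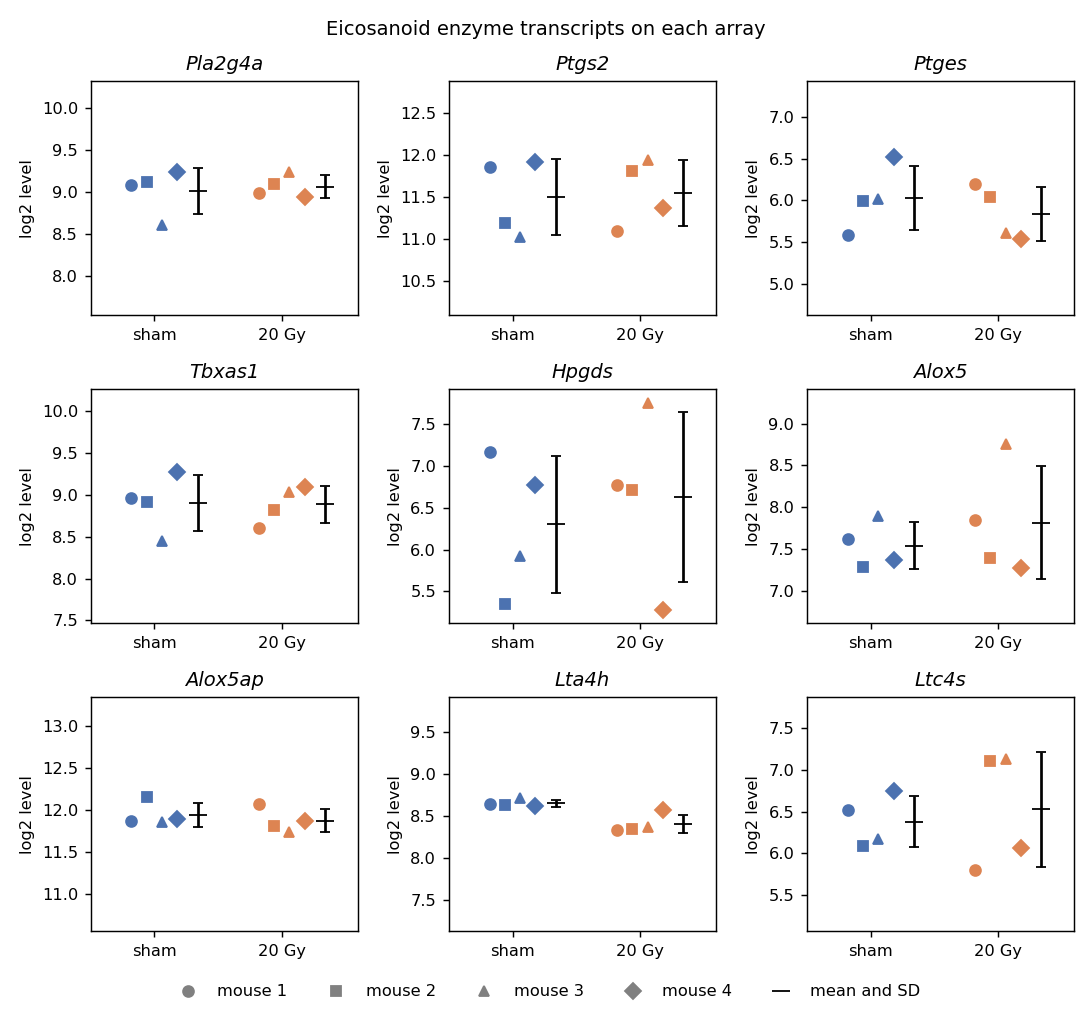
Log2 level (vertical axis, each panel spanning the same range of log2 units) of the 9 measured enzymes in 4 sham mice (blue) and 4 mice irradiated with 20 Gy (orange); each symbol is 1 mouse, and the black mark and bar are the mean and SD. Lta4h is the panel in which the groups do not overlap. Hpgds and Ptgs2 spread widely within both groups, and Ltc4s within the irradiated group.

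Pla2g4a, which starts the pathway, stood at 9.08, 9.12, 8.61 and 9.25 on sham arrays 1 to 4 and at 8.99, 9.10, 9.25 and 8.94 on irradiated arrays 1 to 4. Sham mouse 3 was the low array, and all 4 irradiated mice lay inside the sham range. The difference, irradiated minus sham, was 0.05 with a 95% interval of -0.27 to 0.38 (limma, adjusted p = 0.966). Leaving out sham mouse 3 turned it to -0.08 and leaving out irradiated mouse 3 to -0.01.

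Ptgs2, the inducible cyclooxygenase, stood at 11.86, 11.19, 11.03 and 11.92 on sham arrays 1 to 4. On irradiated arrays 1 to 4 it was 11.09, 11.81, 11.94 and 11.37. In each group 2 mice were high and 2 low, with a gap of 0.44 between the lowest of the 4 high arrays and the highest of the 4 low ones. The group means were 11.50 ± 0.46 and 11.55 ± 0.39 (SD, n = 4 each), a difference of 0.05 ± 0.25 (SE) with a 95% interval of -0.50 to 0.60, which on the linear scale runs from 0.708 to 1.52 times the sham level (limma, adjusted p = 0.979). The sign turned without sham mouse 2 (-0.05), sham mouse 3 (-0.11), irradiated mouse 2 (-0.03) or irradiated mouse 3 (-0.08).

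Of the 3 enzymes that act on prostaglandin H2, none separated the groups. Ptges, the inducible prostaglandin E synthase, stood at 5.58, 6.00, 6.02 and 6.52 on sham arrays 1 to 4 and at 6.19, 6.04, 5.61 and 5.53 on irradiated arrays 1 to 4. Its difference was -0.19 (95% interval -0.65 to 0.28; limma, adjusted p = 0.908), and it was -0.02 without sham mouse 4, the highest array. Tbxas1, thromboxane synthase, stood at 8.96, 8.92, 8.45 and 9.27 on the sham arrays and at 8.61, 8.82, 9.03 and 9.09 on the irradiated ones. Its group means were within 0.02 of each other, with a 95% interval of -0.41 to 0.38 (limma, adjusted p = 0.994). That difference changed sign without sham mouse 1 (0.01), sham mouse 4 (0.11), irradiated mouse 1 (0.08) or irradiated mouse 2 (0.01).

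Hpgds, the prostaglandin D synthase of blood cells, varied most of the 9 from mouse to mouse. It stood at 7.17, 5.35, 5.92 and 6.77 on sham arrays 1 to 4 and at 6.77, 6.71, 7.75 and 5.28 on irradiated arrays 1 to 4. The highest and lowest arrays, irradiated mice 3 and 4, had the same treatment and were 5.55-fold apart. Its spread within groups was larger than that of 99.4% of all genes. The difference of 0.33 therefore had a 95% interval of -0.81 to 1.46 (limma, adjusted p = 0.939), and it became -0.05 without irradiated mouse 3.

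In the leukotriene branch, Alox5, the 5-lipoxygenase, was set apart by 1 mouse. It stood at 7.62, 7.29, 7.90 and 7.37 on sham arrays 1 to 4 and at 7.85, 7.39, 8.76 and 7.27 on irradiated arrays 1 to 4. Irradiated mouse 3 lay 0.86 above the next array, and the other 3 irradiated mice lay close to or inside the sham range. The difference was 0.27 ± 0.29 (SE; 95% interval -0.37 to 0.92; limma, adjusted p = 0.902), and it was -0.04 without that mouse. A second row for Alox5, at lower levels, was also highest in irradiated mouse 3, at 6.69 against 4.97 to 5.96 on the other 7 arrays, and differed by 0.07 between the groups.

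Alox5ap, the protein that presents arachidonic acid to the lipoxygenase, was among the steadier enzymes. It stood at 11.86, 12.16, 11.86 and 11.90 on sham arrays 1 to 4 and at 12.07, 11.81, 11.74 and 11.87 on irradiated arrays 1 to 4. The groups overlapped throughout, with a difference of -0.07 and a 95% interval of -0.32 to 0.18 (limma, adjusted p = 0.940). Its second row gave -0.11. Without sham mouse 2, the highest array, the difference was -0.00088, and without irradiated mouse 3 it was -0.029.

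Lta4h, which makes leukotriene B4, stood at 8.65, 8.63, 8.71 and 8.62 on sham arrays 1 to 4. On irradiated arrays 1 to 4 it was 8.33, 8.35, 8.37 and 8.57. The lowest sham mouse lay 0.05 above the highest irradiated mouse, irradiated mouse 4, and 0.25 above the next. The means were 8.65 ± 0.04 and 8.41 ± 0.11 (SD, n = 4 each), a difference of -0.25 ± 0.10 (SE; 95% interval -0.46 to -0.04), which is 1.19-fold. The unadjusted p was 0.0262 and the adjusted p 0.819 in limma, so the difference did not pass over all genes. Only 4.33% of all genes had a smaller spread within groups, which is the scale on which the groups separate. Leaving out single arrays gave differences between -0.30 (without irradiated mouse 4) and -0.22 (without irradiated mouse 1). Of the markers of other cells, 12 of 14 for neutrophils and 9 of 10 for T and NK cells had lower means in irradiated mice, where 57.8% of all genes did. The count was 7 of 11 for mast cells and basophils and 6 of 9 for tumour, fibroblast and endothelial cells. It was 5 of 10 for mature macrophages, 2 of 5 for platelets and 2 of 6 for eosinophils. In limma 0 of these neutrophil markers and 1 of these T and NK cell markers had an unadjusted p under 0.05, 0 passed the adjusted threshold, and the groups overlapped for each of them. Without sham mice 2 and 3, the sham arrays with the highest T and NK means, Lta4h differed by -0.23 at an unadjusted p of 0.107 (limma). That comparison rests on 2 sham arrays. Their T and NK means were 5.65 and 6.13, against 5.47 to 7.24 in irradiated mice, so it does not even out T and NK cells. The part of other cells in the Lta4h difference was not tested.

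Ltc4s, which makes leukotriene C4 from the same intermediate, did not separate the groups. It stood at 6.51, 6.08, 6.17 and 6.74 on sham arrays 1 to 4 and at 5.80, 7.10, 7.13 and 6.06 on irradiated arrays 1 to 4. The irradiated mice held the 2 highest and the 2 lowest arrays of the 8. The difference was 0.15 (95% interval -0.53 to 0.82; limma, adjusted p = 0.953), and it turned to -0.04 without irradiated mouse 2 and to -0.06 without irradiated mouse 3.

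**Figure D2:**
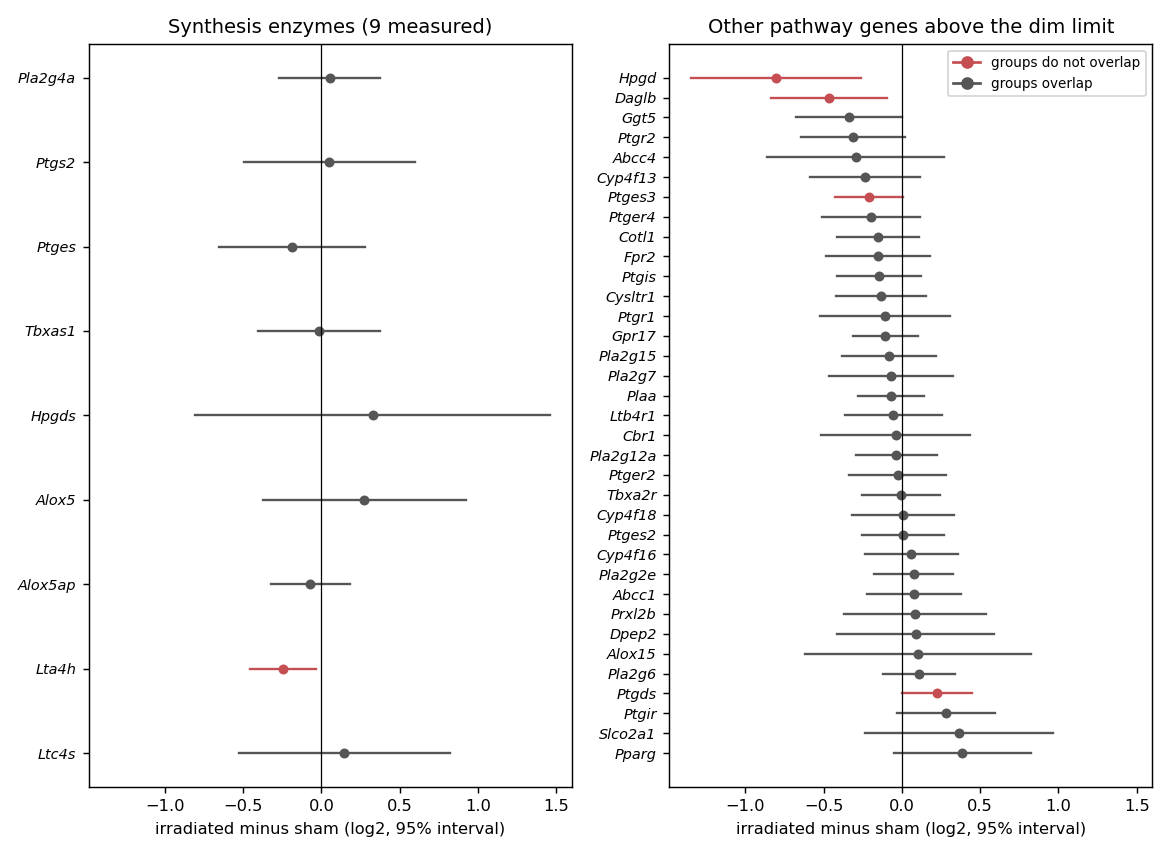
Difference between irradiated and sham means (horizontal axis, log2 units; points) with 95% intervals from limma (lines) for the 9 enzymes, left, and the 35 other genes of the pathway whose mean lies above the median of all rows, right; red marks genes whose groups of 4 do not overlap. Lta4h among the enzymes, and Hpgd, Daglb, Ptges3 and Ptgds among the others, are red.

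Ptgs2 and Ltc4s were high on the same arrays of both treatments. The 4 arrays with the highest Ptgs2, sham mice 1 and 4 and irradiated mice 2 and 3, were also the 4 with the highest Ltc4s. Tbxas1, Hpgds and Pla2g4a shared 3 of their 4 highest arrays with Ptgs2. Ptges, Alox5 and Lta4h shared 2, and Alox5ap shared 1. The 4 highest arrays stood above the rest by 0.44 for Ptgs2, 0.34 for Ltc4s and 0.23 for Alox5. For Ptges, Tbxas1, Hpgds, Alox5ap, Lta4h and Pla2g4a that gap was 0.0003 to 0.061, so small shifts would change which arrays count. The share of all genes with as many arrays in common was not counted. Irradiated mouse 3 was the highest array for Ptgs2, Hpgds, Alox5 and Ltc4s, and irradiated mouse 4 the lowest for Ptges, Hpgds and Alox5.

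Marker transcripts of other cell types were high or low on the same arrays. The mean of 10 measured T and NK cell markers was 5.47 to 6.13 on those 4 arrays and 7.17 to 8.41 on the other 4, sham mice 2 and 3 and irradiated mice 1 and 4. By group, the T and NK mean ranged from 5.65 to 8.41 in sham and from 5.47 to 7.24 in irradiated mice. The mean of 9 tumour, fibroblast and endothelial markers was also lower on the arrays with high Ptgs2, at 6.75 or less against 7.06 or more. The mean of 10 mature macrophage markers was higher there, at 9.54 to 9.86 against 8.89 to 9.29. Cd3g, the T cell receptor subunit with the widest range of that list, stood at 4.67 to 6.36 on the arrays with high Ptgs2 and at 7.70 to 9.66 on the others. Col1a2, a fibroblast collagen gene, stood at 6.54 to 8.29 on the former and 8.06 to 9.95 on the latter. Maf, a macrophage transcription factor, stood at 9.39 to 10.26 and 7.67 to 10.03. Ly6c2, one of the genes behind the Ly6C gate, stood at 10.77 to 11.88 and 11.79 to 12.45. C1qa, a complement gene of mature macrophages, stood at 10.17 or more on those arrays and at 9.84 or less on the others. In Ptgs2 and in the T and NK mean the arrays fell into 2 sets of 4, with gaps of 0.44 and 1.04 between the sets. No correlation of Ptgs2 with these markers is given for that reason. Maf, Col1a2 and Ly6c2 overlapped between the sets. The part of other cells in the Ptgs2 levels was not tested.

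**Figure D3:**
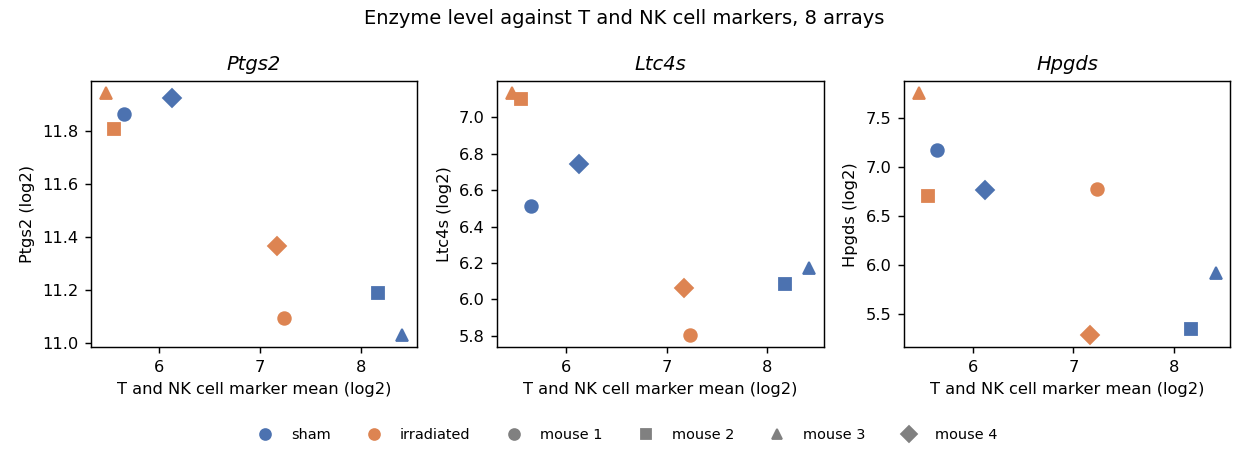
Log2 level of Ptgs2, Ltc4s and Hpgds (vertical axes) against the mean log2 level of 10 T and NK cell markers (horizontal axes) on 8 arrays; colour gives the treatment and the symbol the mouse number. The 4 arrays with the lowest marker means hold the 4 highest levels of Ptgs2 and of Ltc4s, 2 from each treatment.

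Neutrophils and mast cells, which also make these lipids, gave mixed marker values. The mean of all 14 neutrophil markers did not follow Ptgs2 and ranged from 7.15 to 8.59 in sham and from 6.24 to 7.62 in irradiated mice. Camp, a granule gene of immature neutrophils and the marker with the widest range, stood at 8.02 and 10.10 in sham mice 2 and 3, both low in Ptgs2, and at 3.08 to 3.69 elsewhere. Cxcr2, the chemokine receptor of mature neutrophils, did follow Ptgs2: it stood at 9.05 to 10.04 on the 4 arrays with high Ptgs2 and at 6.32 to 7.40 on the others. Csf3r and Mmp9, also on the neutrophil list, were highest on the same 4 arrays, as was Hdc, which makes histamine, at 8.78 or more against 6.90 or less. C1qa, Cxcr2, Csf3r and Mmp9 were singled out after their values were seen. All other genes of the neutrophil list overlapped between the arrays with high and low Ptgs2. Ly6g stood at 3.63 to 5.39 on the arrays with high Ptgs2 and at 3.79 to 5.22 on the others. S100a8 stood at 11.88 to 12.31 and 9.77 to 12.21, and Retnlg at 6.01 to 8.31 and 4.77 to 7.20. The mean of 11 mast cell and basophil markers was highest on the same 4 arrays, at 4.23 to 4.43 against 3.97 to 4.19. Hdc is on that list and had its widest range, 2.80. Mcpt8 and Kit, next at 1.55 and 1.43, overlapped between the arrays with high and low Ptgs2. The mean without Hdc was not taken. The mean of 6 eosinophil markers shared 2 of its 4 highest arrays with Ptgs2 and ranged from 3.84 to 4.28. The mast cell genes Cpa3, Fcer1a and Ms4a2 stayed at 3.86 or below on every array and the eosinophil gene Epx at 4.00 or below, all under the median of all rows; 8 of 11 mast cell and basophil markers and 4 of 6 eosinophil markers had means under it. The mean of 5 measured platelet markers was 6.16 to 6.62 on the arrays with high Ptgs2 and 5.53 to 6.13 on the others. Ppbp, its widest, stood at 7.59 to 9.16 and 5.14 to 7.95. Pf4 stood at 10.20 or more and 9.82 or less, and Itga2b, Gp9 and Gp5 overlapped between the 2 sets of arrays. The eosinophil gene Siglecf stood at 5.52 to 6.12 and 4.32 to 5.88. The part of these cells in the enzyme levels was not tested.

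**Figure D4:**
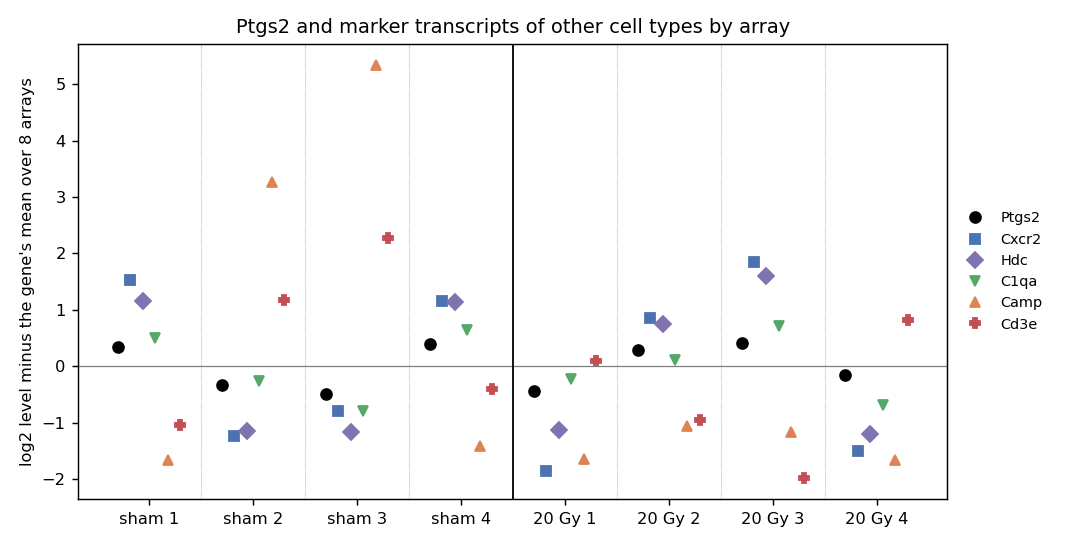
Log2 level minus the gene's own mean over 8 arrays (vertical axis) for Ptgs2 and 5 marker transcripts on each array (horizontal axis), namely Cxcr2 and Camp of neutrophils, Hdc, C1qa of macrophages and Cd3e of T cells. Cxcr2, Hdc and C1qa lie above 0 on the 4 arrays where Ptgs2 does, Cd3e lies below 0 there, and Camp is high in sham mice 2 and 3 alone.

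The genes whose pattern over the 8 arrays was most like that of Ptgs2, among 12309 genes above the median of all rows, were Acod1, Ccl4, Ralgds, Lpl and Dusp5, with Pearson r of 0.988, 0.987, 0.984, 0.983 and 0.982 and Spearman rho of 0.976, 0.976, 0.929, 0.786 and 1.00. Acod1 makes itaconate, Ccl4 is a chemokine, Ralgds a Ras effector, Lpl a lipase and Dusp5 a phosphatase of ERK. Acod1 stood at 10.92, 9.23, 8.43 and 10.79 on sham arrays 1 to 4 and at 8.74, 10.71, 11.33 and 9.67 on irradiated arrays 1 to 4. These r rest on 8 points in 2 clusters. The genes were picked for the highest r among 12309, so high values were fixed by the selection. The genes closest to Hpgds and Alox5 were picked in the same way. For Hpgds the closest were Ciart, 4833411C07Rik, Acot1, Tceanc and Cln8, with r from 0.934 to 0.973 and rho from 0.833 to 0.929. For Alox5 they were Nt5m, Zfp113, Lyz1, Mir654 and 4932438H23Rik, with r from 0.913 to 0.942. Their rho were lower for some, from 0.643 for Mir654 to 0.929 for Zfp113. Irradiated mouse 3 was the highest array for each of the 5.

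Beyond the synthesis enzymes, 55 of 61 listed genes for other steps of the pathway were measured, of which 35 had means above the median of all rows and 20 were dim, with means under it. Of the 55, 26 were higher and 29 lower in irradiated mice, with a median difference of -0.02. None passed the adjusted threshold in limma; 3 were higher and 3 lower at an unadjusted p under 0.05, and the groups did not overlap for 5. The background for the same counts is 6.07% of all genes for the unadjusted p and 3.68% for no overlap.

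Of the 55 genes, the one with the largest difference between group means breaks prostaglandins down. Hpgd, 15-hydroxyprostaglandin dehydrogenase, which inactivates prostaglandin E2, stood at 8.16, 8.31, 8.03 and 7.55 on sham arrays 1 to 4. On irradiated arrays 1 to 4 it was 7.55, 7.36, 6.47 and 7.45. Sham mouse 4 and irradiated mouse 1 nearly touched, and irradiated mouse 3 was the low array. The means were 8.01 ± 0.33 and 7.21 ± 0.50 (SD, n = 4 each), a difference of -0.81 ± 0.24 (SE; 95% interval -1.35 to -0.26), or 1.75-fold. Its unadjusted p was 0.00773 and its adjusted p 0.819 in limma, and the difference ran from -0.96 (without sham mouse 4) to -0.56 (without irradiated mouse 3).

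The other catabolic and transport genes were less apart. Ggt5, which trims leukotriene C4, differed by -0.34 and Dpep1, a dim gene whose product acts on leukotriene D4, by 0.25. In limma their unadjusted p were 0.0492 and 0.0394, each at an adjusted p of 0.819 or more, and the groups overlapped for both. Ptgr2, a prostaglandin reductase, differed by -0.31 and the prostaglandin transporter gene Slco2a1 by 0.36, and both overlapped between the groups. In all, 7 of 14 measured genes of breakdown and transport were higher and 7 lower.

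Among phospholipases and related genes, 6 of 14 were higher and 8 lower. Daglb, a diacylglycerol lipase whose product can be cut to arachidonic acid, had means of 7.38 ± 0.18 (sham) and 6.91 ± 0.32 (irradiated; SD, n = 4 each) without overlap, a difference of -0.47 (95% interval -0.83 to -0.10; limma, unadjusted p = 0.0181, adjusted p = 0.819). It was -0.30 without irradiated mouse 4. Pla2g2d, a dim secreted phospholipase gene, differed by 0.33, or by 0.20 without irradiated mouse 1.

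Of 6 further prostanoid synthases, 3 were higher and 3 lower. Ptges3, the cytosolic prostaglandin E synthase also known as the chaperone p23, had means of 10.81 ± 0.10 (sham) and 10.60 ± 0.08 (irradiated), without overlap but at an unadjusted p of 0.0545. Ptgds, the lipocalin-type prostaglandin D synthase, stood at 4.81 ± 0.09 and 5.03 ± 0.11, close to the median of all rows, with no overlap and an unadjusted p of 0.0477 (limma, adjusted p = 0.820). Among 7 other lipoxygenase genes, Aloxe3 differed by 0.29, without overlap of the groups and at an unadjusted p of 0.0316 (limma, adjusted p = 0.819). Alox12b differed by -0.22 and its groups overlapped. Both genes were dim.

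The receptors of these lipids gave no separation of the groups. Of 8 measured prostanoid receptors 4 were higher and 4 lower, and 0 reached an unadjusted p under 0.05. Pparg, a nuclear receptor for prostaglandin J2 derivatives, differed by 0.39 and Ptgir, the prostacyclin receptor, by 0.28, or by 0.16 without irradiated mouse 2. Ptger4, a prostaglandin E2 receptor of macrophages, had means of 7.53 ± 0.17 (sham) and 7.33 ± 0.24 (irradiated), and Ptger2, the other cyclic AMP-raising receptor, at 6.56 ± 0.15 and 6.54 ± 0.25. Of 6 leukotriene and lipoxin receptors 2 were higher and 4 lower. In limma their smallest unadjusted p were 0.218 for Oxgr1, a dim gene, and 0.277 for Gpr17. The differences of these 2 genes were 0.17 and -0.11, both within overlapping groups. That of Oxgr1 was 0.10 without irradiated mouse 2. Ltb4r1, the receptor of the lipid that Lta4h makes, stood at 8.22 ± 0.19 and 8.17 ± 0.22.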

How the data were processed

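Values were measured on Affymetrix arrays from 25 ng of RNA per mouse, amplified before labelling, per the labels' protocols. The deposited log2 values were made by the authors with RMA and Partek, per the submitters' processing notes; for settings, versions, batches and scan dates the sources used here give nothing, and the log2 scale was read from the range of 1.89 to 13.2. Of 34365 rows, 23521 had 1 symbol in the platform annotation, 1814 several and 9030 none. Irradiated and sham arrays entered a two-sided lmFit and eBayes fit (limma 3.58.1, R 4.3.3), with p adjusted by Benjamini-Hochberg over 22180 genes, with no filter on dim genes (9868 had means under 4.70, the median of all rows). The fit was tested on simulated data. Precision is limited by the number of arrays. All 9 enzymes, the genes with an unadjusted p under 0.05 or the 2 smallest p per pathway list, the 5 most similar genes for Ptgs2, Alox5 and Hpgds, and the markers with the widest ranges were named by rule; others were named after their values were seen. The genes and lists were chosen with earlier results of these data known. Plots used matplotlib 3.10.9.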

Additional observations from a re-analysis of the deposited data

Results flagged for a closer look

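Among 18 groups of 4 examined for the 9 enzymes, 2 held 1 mouse far from the other 3, where chance gives about 1 in 20. Alox5ap in sham mouse 2 stood at 12.16 against 11.90 for the nearest sham mouse, a gap that is 0.875 of the group's range. Lta4h in irradiated mouse 4 stood at 8.57 against 8.37 for the nearest irradiated mouse, 0.830 of the range.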

How the results depend on the processing

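Under 16 alternatives, none of the 144 values of the 9 enzymes passed the adjusted threshold; the smallest adjusted p was 0.746. Of these values 125 kept their sign and 19, in 6 genes, turned it. The removal of dim genes, a trended and robust variance and the replicate block cannot change a difference. Nor can the mean over rows for an enzyme with 1 row, so the signs kept there were fixed in advance. Lta4h, Ptges and Alox5ap kept their signs under these 16 alternatives. Alox5ap came to -0.00088 without sham mouse 2 and -0.0082 without sham mice 2 and 3. Without sham mice 2 and 3, Ptgs2 was -0.34, Hpgds -0.34, Ltc4s -0.10 and Pla2g4a -0.10. Those mice held the lower sham levels of Ptgs2 (11.19 and 11.03), and also those of Hpgds and Ltc4s. Irradiated mice 1 and 4, also low in Ptgs2 (11.09 and 11.37), were kept. The turn of Ptgs2 thus follows from which arrays were left out. With quantile normalization Tbxas1 was 0.022. Leaving out single arrays, the differences ran from -0.11 to 0.20 for Ptgs2, -0.16 to 0.11 for Tbxas1, -0.048 to 0.78 for Hpgds, -0.039 to 0.46 for Alox5, -0.056 to 0.39 for Ltc4s and -0.082 to 0.13 for Pla2g4a, and from -0.34 to -0.025 for Ptges, -0.14 to -0.00088 for Alox5ap and -0.30 to -0.22 for Lta4h. The number of genes past the threshold over all genes ran from 0 to 1, with 1 without irradiated mouse 1. The unadjusted p of Lta4h ran from 0.0129 to 0.107 and was under 0.05 in 9 of 16 alternatives. Same-numbered mice of the groups deviated from their group means with correlations of -0.28, -0.17, -0.18 and -0.14. Mice with different numbers gave -0.23 to 0.27. Each same-numbered pair joined an array high in Ptgs2 to an array low in it. These values therefore cannot show whether the numbers pair the mice. With the mouse number as a replicate block in limma, the Lta4h difference was -0.25 with an unadjusted p of 0.0631 and an adjusted p of 0.957. The block made no call over all genes (0). The cause of these shifts was not tested. Signal over background was not tested, as no detection calls were used.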
